A study of Saccharomyces cerevisiae with 6 samples.

Results

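The 34 genes described here carry iron into the yeast cell, move it between the cell's compartments, build iron-sulphur clusters or control those steps. They were chosen by name from general knowledge of iron metabolism, leaving out the ferric reductase family and genes of chromosome X. Earlier results of these data were known when they were chosen, so no test of the set was run. All 34 were among the 5449 genes measured, each by 1 probe set with no missing value. The arrays compared total RNA of the haploid budding yeast strain BY4741, 3 arrays labelled wild type (BY4741 wt) and 3 labelled BY4741 ypr045c∆, a deletion of the gene also called THP3. Both groups share the auxotrophic background of BY4741 and were grown to the exponential phase in rich medium (YPD). Separate cultures are not stated for the 3 RNAs of either group, nor is the number of deletion clones. The p-values therefore reflect array-to-array spread that may be technical in part. Array names below, such as wild-type array 3, repeat the labels. RNA of a whole culture was measured, so fewer cells expressing a gene and less of its mRNA per cell cannot be told apart.

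Budding yeast takes up iron by reducing it at the surface and passing it through a ferroxidase and permease, or by importing siderophores, small iron carriers made by other microbes. When iron is low, as sensed through iron-sulphur cluster synthesis in mitochondria, the activators Aft1 and Aft2 switch on the uptake genes, the iron regulon. The vacuole stores iron, and RNA-binding proteins of the regulon promote the decay of mRNAs for iron-using proteins.

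The targeted gene does not bear out the labels. THP3 had deposited intensities of 732.51, 677.63 and 462.77 on arrays labelled wild type against 949.98, 894.03 and 528.86 on arrays labelled deletion (log2 difference 0.33 ± 0.25, SE; limma adjusted p = 0.39). With both arrays numbered 3 left out it was called higher (0.41, adjusted p = 0.020). It is not known here whether its probes lie in the deleted part, so each direction below rests on the labels. The a-type mating genes STE2, MFA1, MFA2, BAR1 and STE6 all stood between 12.24 and 13.79 on the log2 scale in both groups. Those of the alpha type, STE3, MF(ALPHA)1 and MF(ALPHA)2, stood between 6.54 and 7.52, near the background limit of 6.48. BY4741 is of the a type. Of the genes deleted or disrupted in BY4741, URA3 and MET17 lay below that limit in both groups, while LEU2 (8.79 and 8.52) and HIS3 (11.55 and 11.60) lay above it. Of 316 genes on chromosome X 295 were lower in the arrays labelled deletion (median log2 difference -0.79), and no iron gene of the set lies there.

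Of the 34 iron genes 11 were called higher and 4 lower in the deletion group at an adjusted p of 0.05 (limma, Benjamini-Hochberg over all genes), and 19 did not pass. Among all 5449 genes 21.7% passed, 11.6% higher and 10.2% lower, and outside chromosome X 17.3% passed, 12.3% higher and 5.05% lower. The genes that rose were FET3, FTR1, CCC2, ATX1, FET4, ARN1, SIT1, ENB1, FET5, SMF3 and AFT2, and those that fell were FIT1, ISU1, ISU2 and HMX1. The changes were small: the log2 differences ran from -0.46 to 0.70, with a median of 0.13 against 0.03 for all genes. The values of the groups did not overlap for 14 genes that were higher and 6 that were lower, a pattern found in 41.1% of all genes (25% higher, 16.1% lower) and in 37.8% of those outside chromosome X. ENB1 and HMX1 kept their calls in all 19 alternative settings, and the other 13 calls were lost in 1 or more of them. With chromosome X genes left out of the fit, 8 iron genes were called higher and 2 lower, beside 536 and 225 of 5133 genes. With both arrays numbered 3 left out, 4 iron genes were called higher and 4 lower, where 15.1% of all genes were called (6.4% higher, 8.68% lower). With median centring of the arrays 2 of the 34 were called higher and 5 lower. Under it 4.42% of all genes were called higher and 14.2% lower, so both counts were near the background. That scaling lowered the median difference of all genes by 0.12, and the median of the iron genes relative to all genes was 0.07 under it and 0.09 in the reported fit. This relative median was 0.05 with both arrays numbered 3 left out and 0.03 without wild-type array 3.

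**Figure D1:**
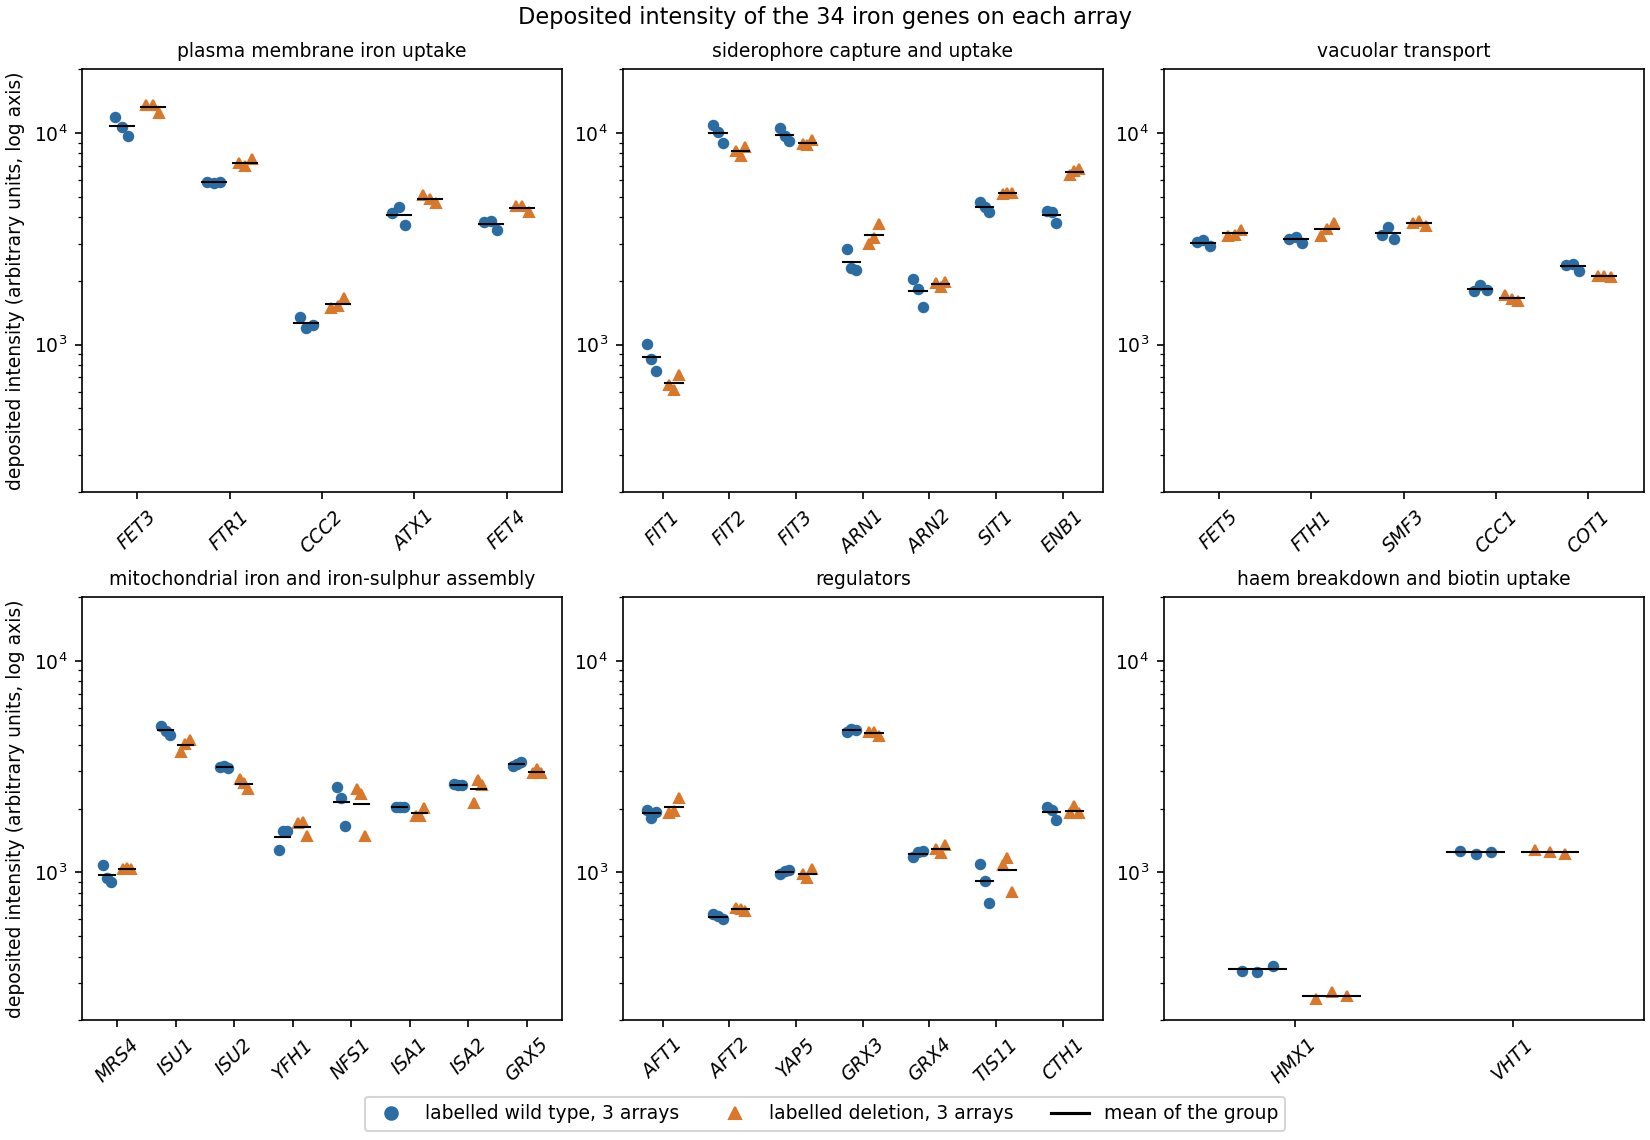
Deposited intensity (arbitrary units, log axis) of each iron gene on the 3 arrays labelled wild type (circles) and the 3 labelled deletion (triangles), with the group mean as a line, in panels by role. ENB1 and HMX1 show groups that stand clearly apart, while the groups of NFS1 and TIS11 spread widely and overlap.

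Genes of iron uptake at the plasma membrane rose in 5 of 5 cases, by 1.20- to 1.27-fold, beside 11.6% of all genes called higher. FTR1 (YER145C, chromosome V), the high-affinity iron permease, had deposited intensities of 5844, 5824 and 5863 on arrays labelled wild type against 7220, 6993 and 7506 on arrays labelled deletion. Every array labelled deletion was above every array labelled wild type, and the log2 difference was 0.32 ± 0.04 (adjusted p = 0.0020). Its partner FET3 (YMR058W, chromosome XIII), the multicopper ferroxidase that oxidizes iron for the permease, had 11875, 10700 and 9669 against 13614, 13564 and 12408. These groups did not overlap either, but array 3 was the lowest of both, and the difference was 0.32 ± 0.08 (adjusted p = 0.031).

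Copper reaches Fet3 through the chaperone Atx1 and the Golgi pump Ccc2. CCC2 (YDR270W, chromosome IV) had 1353, 1198 and 1231 on arrays labelled wild type against 1495, 1519 and 1659.5 on arrays labelled deletion (log2 difference 0.35 ± 0.06, adjusted p = 0.0085). ATX1 (YNL259C, chromosome XIV) had 4164, 4451 and 3693 against 5102, 4869 and 4689 (0.27 ± 0.08, adjusted p = 0.049). FET4 (YMR319C, chromosome XIII), the low-affinity transporter of iron and other metals, had 3785, 3835 and 3471 against 4502, 4497 and 4249 (0.29 ± 0.05, adjusted p = 0.0084). None of the 3 had overlapping groups.

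With median centring all 5 lost the call, although they stood 0.24 to 0.30 above the median of all genes under it and 0.23 to 0.31 above it in the reported fit. FTR1 and FET4 were called in the other 18 alternatives. FET3 missed the threshold without wild-type array 2 or 3 or deletion array 1 or 2 (adjusted p = 0.061 to 0.099), and ATX1 without any single array but wild-type array 2 (adjusted p = 0.075 to 0.14). CCC2 missed it with both arrays numbered 3 left out (adjusted p = 0.053). The spread that limma used also changed with median centring. The ferric reductase gene FRE4, for example, had an adjusted p of 4.81e-44 under it and 3.95e-05 in the reported fit. How far the scaling or the spread cost the calls was not tested.

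**Figure D2:**
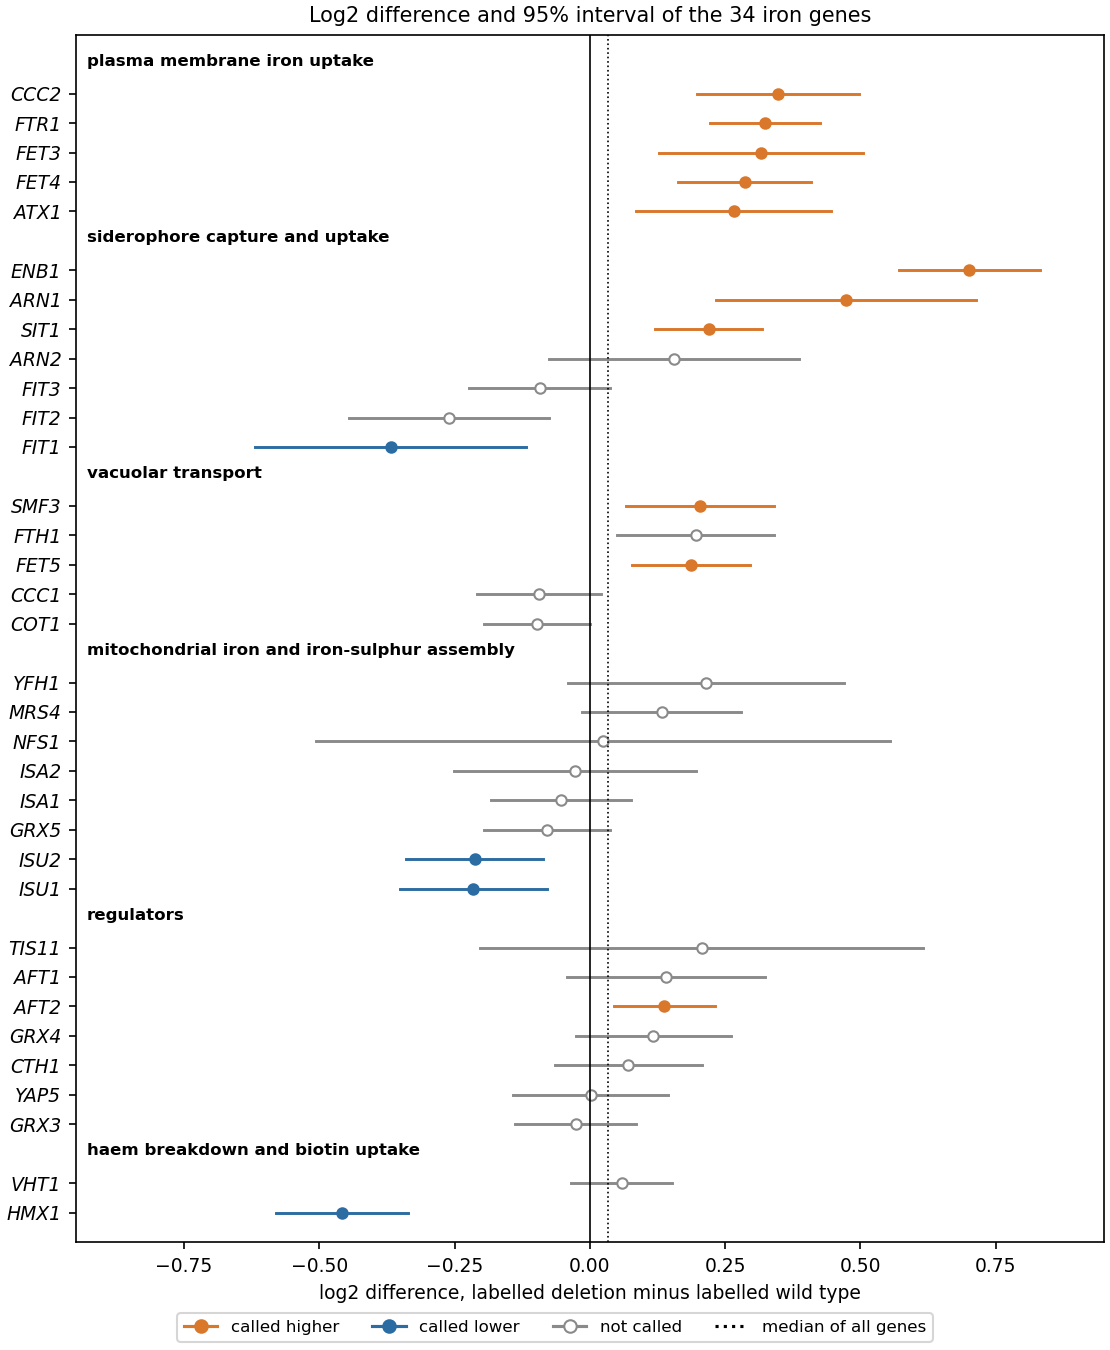
Log2 difference (labelled deletion minus labelled wild type) of each iron gene with its 95% interval from limma, grouped by role; filled points passed an adjusted p of 0.05 and the dotted line marks the median of all genes at 0.03. All 5 plasma membrane genes lie to the right, and the siderophore group spans from FIT1 at -0.37 to ENB1 at 0.70.

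Of the siderophore transporters 3 of 4 rose, and of the cell wall proteins for siderophores 1 of 3 fell. The difference between these kinds of gene was not tested. Among all genes 11.6% rose and 10.2% fell. ENB1 (YOL158C, chromosome XV), the transporter of the bacterial siderophore enterobactin, had the largest difference of the iron genes in the reported fit. It measured 4262, 4212 and 3773 on arrays labelled wild type against 6350, 6590 and 6721 on arrays labelled deletion. The lowest array labelled deletion thus lay far above the highest labelled wild type, and ENB1 was 1.63-fold higher (log2 difference 0.70 ± 0.05, 95% interval 0.57 to 0.83, adjusted p = 0.00015). By size this was rank 58 of the 5449 differences, counted from the largest rise. Over the alternatives it ran from 0.58 to 0.73.

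ARN1 (YHL040C, chromosome VIII), a transporter of ferrichrome-type siderophores, had 2839, 2302 and 2252 against 2997, 3190 and 3706. The groups did not overlap, though wild-type array 1 came close to deletion array 1, and the difference was 0.47 ± 0.10 (adjusted p = 0.017). Without wild-type array 2 or 3 the adjusted p was 0.063 and 0.060, and with both arrays numbered 3 left out it was 0.099. SIT1 (YEL065W, chromosome V), the ferrioxamine transporter, had 4732, 4452 and 4244 against 5157, 5180 and 5227. The 3 arrays labelled deletion lay close together above the others, with a difference of 0.22 ± 0.04 (adjusted p = 0.010). With both arrays numbered 3 left out the adjusted p of SIT1 was 0.057, and with median centring 0.55. ARN2 (YHL047C), the transporter of triacetylfusarinine, had overlapping groups and a difference of 0.16, with an interval from -0.08 to 0.39 (adjusted p = 0.30).

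FIT1, FIT2 and FIT3 encode mannoproteins that hold siderophore iron in the cell wall. FIT1 (YDR534C, chromosome IV) had 1001, 859 and 752 on arrays labelled wild type against 643, 608 and 717 on arrays labelled deletion. The highest array labelled deletion lay just below the lowest labelled wild type, and FIT1 fell with a log2 difference of -0.37 ± 0.11 (adjusted p = 0.0496). Without wild-type array 1 or 2 or deletion array 1 or 2 its adjusted p was 0.11 to 0.13. The call of FIT1 was kept in 9 of the 19 alternatives. FIT2 (YOR382W, chromosome XV) had 10943, 10088 and 8971 against 8187, 7786 and 8615, again without overlap. Its difference of -0.26 ± 0.08 missed the threshold (adjusted p = 0.056), and without wild-type array 3 it passed (adjusted p = 0.015), as it did with both arrays numbered 3 left out (log2 difference -0.37, adjusted p = 0.015). FIT3 (YOR383C), the next gene on that chromosome, had a difference of -0.09 (interval -0.22 to 0.04, adjusted p = 0.28).

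FIT2 and FIT3 lie between 2 ferric reductase genes in the R64 gene order. On one side FRE5 fell (log2 difference -0.64 ± 0.06, adjusted p = 0.00039), with 264, 262 and 244 on arrays labelled wild type against 166, 170 and 170 on arrays labelled deletion. On the other side, past YOR381W-A, FRE3 had a difference of -0.19 and was not called (adjusted p = 0.15). YOR385W, beyond FRE5, rose (0.86 ± 0.09, adjusted p = 0.00065). Of 54 measured genes outside the set that lie directly beside one of its members, 12 were called higher and 4 lower, beside 12.3% and 5.05% of all genes outside chromosome X.

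Vacuolar genes rose in 2 of 5 cases and 0 fell by limma, beside 11.6% and 10.2% of all genes. At an unadjusted p under 0.05, 3 were higher and 1 lower, beside 21.3% and 14.4% of all genes. FET5 (YFL041W, chromosome VI), a ferroxidase of the vacuole membrane that resembles Fet3, had 3069, 3106 and 2933 against 3263, 3296 and 3487 (log2 difference 0.19 ± 0.05, adjusted p = 0.029). Its permease partner FTH1 (YBR207W, chromosome II) had 3165, 3232 and 3028 against 3246, 3499 and 3768. FTH1 had nearly the same difference, 0.20 ± 0.06, and missed the threshold (adjusted p = 0.063; 0.041 without deletion array 1). Neither gene's groups overlapped. SMF3 (YLR034C, chromosome XII), which exports iron from the vacuole, had 3311, 3587 and 3167 against 3756, 3846 and 3628 (0.20 ± 0.06, adjusted p = 0.048). Leaving out any single array other than wild-type array 2 ended the calls of FET5 (adjusted p = 0.064 to 0.082) and SMF3 (0.071 to 0.14). With the values as deposited, FET5 and SMF3 were not called (adjusted p = 0.084 and 0.105). CCC1 (YLR220W), which loads iron into the vacuole, and COT1 (YOR316C), a vacuolar transporter of zinc and cobalt, had differences of -0.09 and -0.10 (adjusted p = 0.22 and 0.14).

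In mitochondria 2 of 8 genes fell and 0 rose by limma, beside 10.2% and 11.6% of all genes (5.05% and 12.3% outside chromosome X). At an unadjusted p under 0.05 the counts were also 2 and 0, beside 14.4% and 21.3% of all genes. The genes that fell were ISU1 and ISU2, which encode the scaffold on which iron-sulphur clusters are built. ISU1 (YPL135W, chromosome XVI) had 4935, 4684 and 4470 on arrays labelled wild type against 3698, 4028 and 4227 on arrays labelled deletion (log2 difference -0.22 ± 0.06, adjusted p = 0.038). ISU2 (YOR226C, chromosome XV) had 3141, 3196 and 3105 against 2772, 2640 and 2468 (-0.21 ± 0.05, adjusted p = 0.032). Both had groups that did not overlap and differences of like size. ISU1 kept the call only without deletion array 3, with an adjusted p of 0.055 to 0.11 without any other single array. ISU2 kept it only without deletion array 1, with 0.059 to 0.091 otherwise.

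The cysteine desulfurase gene NFS1 (YCL017C) spread most, with 2527, 2253 and 1650 against 2481, 2357 and 1490. Both arrays numbered 3 were low, and the difference between the groups was 0.02, with an interval from -0.51 to 0.55. In a fit with a term for those arrays, they stood -0.59 from the others (adjusted p = 0.022; 2.06% of all genes were called for this term). The frataxin gene YFH1 (YDL120W) had a difference of 0.21 (interval -0.04 to 0.47, adjusted p = 0.20). ISA1, ISA2 and GRX5, which act late in cluster assembly and transfer, had differences of -0.05, -0.03 and -0.08, with intervals that lay between -0.25 and 0.20. MRS4 (YKR052C, chromosome XI) imports iron into mitochondria and had a difference of 0.13 (interval -0.01 to 0.28, adjusted p = 0.17; 0.035 without wild-type array 1). Its paralog MRS3, on chromosome X, fell from 2678, 2458 and 2598 to 1331, 1340 and 1477 (log2 difference -0.84 ± 0.06, adjusted p = 9.47e-05), close to the median of that chromosome.

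Among the 7 regulators AFT2 alone passed the threshold, beside 21.7% of all genes and 17.3% of those outside chromosome X. AFT2 (YPL202C, chromosome XVI) had 635, 620 and 601 on arrays labelled wild type against 679, 673 and 660 on arrays labelled deletion. The groups did not overlap, but the log2 difference was 0.14 ± 0.04 (adjusted p = 0.049), and the call was lost without any 1 of the 6 arrays (adjusted p = 0.085 to 0.16). AFT1 (YGL071W), the main activator of the regulon, had a difference of the same size, 0.14 ± 0.08 (adjusted p = 0.24). GRX3 and GRX4, the glutaredoxins that pass the iron signal to the Aft proteins, had differences of -0.03 and 0.12 (adjusted p = 0.73 and 0.21). YAP5, the activator that answers high iron, had 0.00 with an interval from -0.14 to 0.15. TIS11 (YLR136C), also called CTH2, and CTH1 encode the RNA-binding proteins that promote mRNA decay. TIS11 had 1092, 910 and 720 against 1087, 1173 and 809, so its array 3 was low in each group, and its difference was 0.21 ± 0.17 (adjusted p = 0.44). CTH1 had a difference of 0.07 (adjusted p = 0.42). With median centring NFS1, MRS4, AFT1, GRX4, CTH1, VHT1 and YAP5 had differences below 0, and none of them was called.

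HMX1 (YLR205C, chromosome XII) encodes the haem oxygenase that frees iron from haem, and it had the largest fall of the iron genes in the reported fit. It measured 342, 340 and 362 on arrays labelled wild type against 252, 271 and 260 on arrays labelled deletion. The groups stood well apart, with a log2 difference of -0.46 ± 0.05 (95% interval -0.58 to -0.34, adjusted p = 0.00089), or 1.37-fold lower. Over the alternatives the difference ran from -0.49 to -0.39. The genes beside HMX1, QRI5 and ENT2, differed by 0.05 and -0.03 and were not called. VHT1 (YGR065C), the biotin importer that iron shortage is known to induce through Aft1, differed by 0.06 (interval -0.04 to 0.15, adjusted p = 0.33).

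Among the 34, 19 were listed as known targets of Aft1 or Aft2, a list that left out VHT1, and of these 9 rose (FET3, FTR1, CCC2, ATX1, ARN1, SIT1, ENB1, FET5 and SMF3), 3 fell (FIT1, ISU1 and HMX1) and 7 did not pass. Of the other 15, FET4 and AFT2 rose and ISU2 fell, where 11.6% of all genes rose and 10.2% fell. The difference between the 19 and the other 15 was not tested. The targets thus did not move one way: the uptake transporters that changed were higher, while the wall protein FIT1, the scaffold ISU1 and the haem oxygenase HMX1 were lower. Within groups the targets also varied between arrays. Wild-type array 3 was the lowest of its group for 15 of the 19 targets, against 30.0% of all genes, and deletion array 3 was the highest of its group for 14 of 19, against 44.8% of all genes. With both arrays numbered 3 left out, 3 targets were called higher (FET3, FTR1 and ENB1) and 4 lower (FIT1, FIT2, ISU1 and HMX1). Without wild-type array 3 alone 4 were called higher and 3 lower, beside 8.9% and 8.77% of all genes. What sets the arrays numbered 3 apart was not tested.

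**Figure D3:**
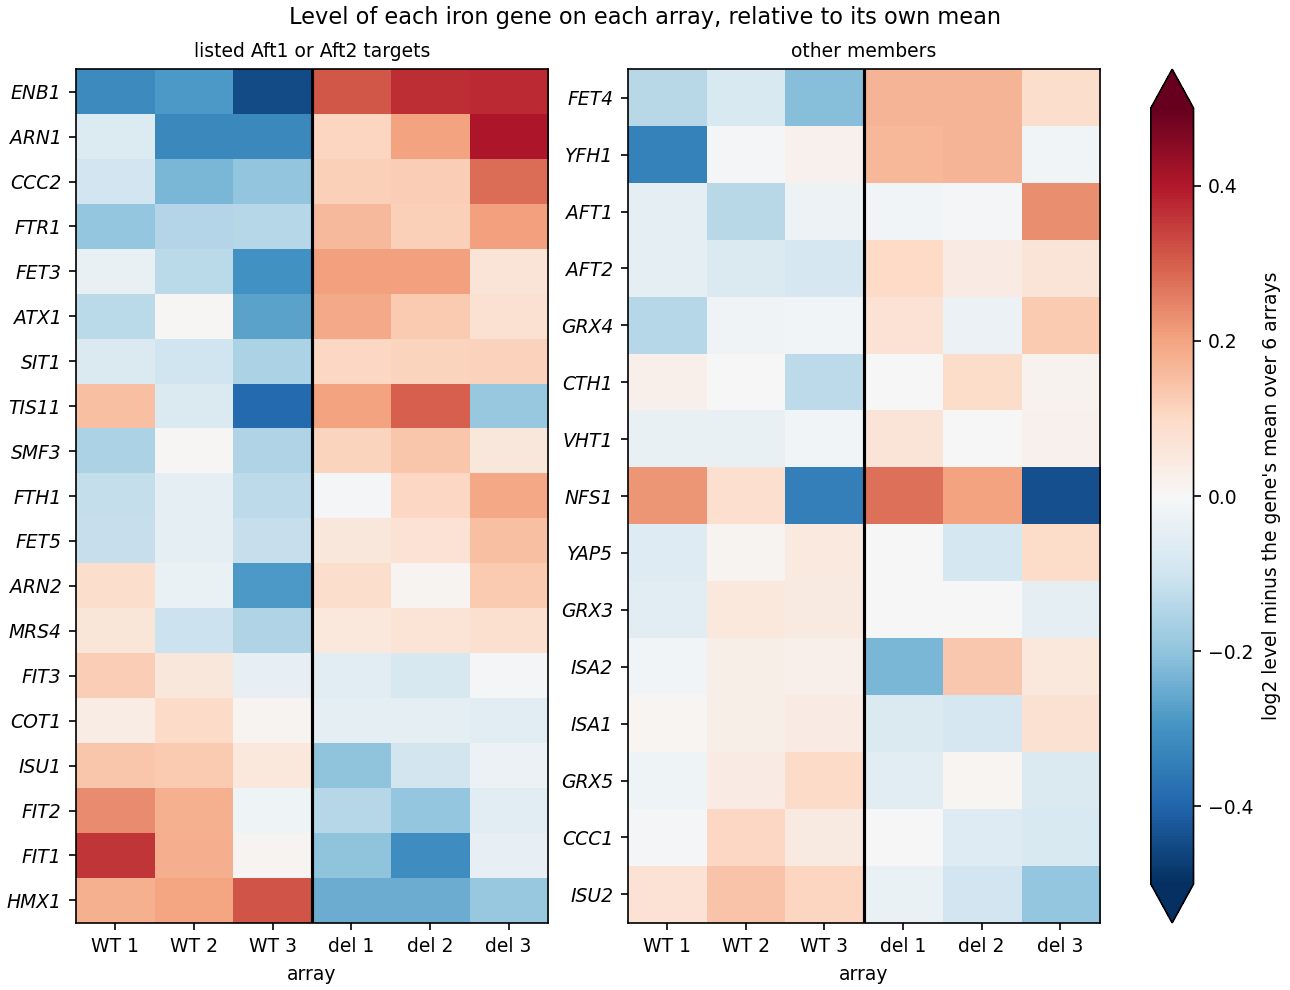
Log2 level of each iron gene on each array minus the gene's own mean over the 6 arrays, for the 19 listed Aft targets and the other 15 genes, ordered by the difference between the groups. Most targets are low in wild-type array 3, and NFS1 is low in both arrays numbered 3.

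Paralogs within the set were set side by side. The 2 ferroxidases FET3 and FET5 differed by 0.32 and 0.19, and their permeases FTR1 and FTH1 by 0.32 and 0.20, so in each pair the plasma membrane gene had the larger value. The scaffold genes ISU1 and ISU2 differed by -0.22 and -0.21. FIT2 and FIT3 differed by -0.26 and -0.09, ARN1 and ARN2 by 0.47 and 0.16, and GRX3 and GRX4 by -0.03 and 0.12. The differences between paralogs were not tested.

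The rest of the pathway was followed in 8 further lists of 84 genes, 83 of them measured. Of these 15 rose and 14 fell (8 of the latter on chromosome X), beside 11.6% and 10.2% of all genes. Outside chromosome X 15 of 75 rose and 6 fell, beside 12.3% and 5.05% of all genes there. Ferric reductases, which deliver reduced iron to the transporters, rose in 5 of 8 cases and fell in 1. FRE4, a reductase for siderophore iron, had 137, 114 and 129 against 410, 420 and 477 (log2 difference 1.61 ± 0.09, adjusted p = 3.95e-05), and FRE2 and FRE6 rose by 0.38 and 0.23 on the log2 scale. FRE4, FRE5 and FRE2 were called in all alternatives. FRE6 was not called with median centring or with both arrays numbered 3 left out (adjusted p = 0.68 and 0.052).

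Among 10 further genes reported as Aft targets 3 rose and 4 fell, beside 11.6% and 10.2% of all genes (12.3% and 5.05% outside chromosome X). LSO1, a small protein gene induced by low iron, fell by 1.49 on the log2 scale, and PRY1 and BNA2 by 0.88 and 0.75. All 3 lie on chromosome X, where the median log2 difference was -0.79, so LSO1 fell further than that median. ECM4 on chromosome XI fell by 0.25 (adjusted p = 0.0089). The 3 that rose were ATG41, a gene of selective autophagy (log2 difference 0.94 ± 0.22, adjusted p = 0.027), the vacuolar aminopeptidase gene APE1 (0.42 ± 0.11, adjusted p = 0.038) and the palmitoyltransferase gene AKR1 (0.31 ± 0.08, adjusted p = 0.032). Each lost its call without any 1 of 4 arrays: ATG41 without wild-type array 1 or 3 or deletion array 1 or 2 (adjusted p = 0.059 to 0.073), APE1 without wild-type array 3 or any deletion array (0.065 to 0.11), and AKR1 without wild-type array 2 or any deletion array (0.051 to 0.097). Of 15 genes for iron-sulphur proteins 6 fell and 1 rose, beside 10.2% and 11.6% of all genes (5.05% and 12.3% outside chromosome X). MET5 (log2 difference -0.81) and ILV3 (-0.58), of sulphite reduction and branched-chain amino acid synthesis, lie on chromosome X. LEU1, the isopropylmalate isomerase of leucine synthesis, does not, and had 8907, 8229 and 8836 against 6034, 6013 and 6082 (log2 difference -0.49 ± 0.04, adjusted p = 0.00022). LYS4, the homoaconitase of lysine synthesis, rose instead (0.44 ± 0.06, adjusted p = 0.0027). LSO1, PRY1, BNA2, ECM4, MET5, ILV3, LEU1 and LYS4 were called in every alternative they entered.

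Beside 11.6% higher and 10.2% lower among all genes, other genes of mitochondrial cluster assembly rose in 1 of 10 cases. They fell in 2, MRS3 and IBA57, both on chromosome X. The rise was that of NFU1 (0.16 ± 0.04, adjusted p = 0.046), which was lost without any 1 of the 6 arrays (adjusted p = 0.064 to 0.13). The cytosolic assembly and iron-sensing list had 0 of 10 called by limma, with 1 higher at an unadjusted p under 0.05, and differences between -0.14 and 0.16. The list of other metal transporters had 0 of 12 called, with 3 higher at an unadjusted p under 0.05, near the 21.3% of all genes. Haem genes rose in 2 of 10 cases, beside 11.6% of all genes. They were the synthesis gene HEM2 (0.20 ± 0.05) and the haem-dependent activator HAP1 (0.19 ± 0.05). HEM2 kept the call only without wild-type array 3 (adjusted p = 0.090 to 0.11 without another single array), and HAP1 lost it without any 1 array (adjusted p = 0.078 to 0.12). Copper genes rose in 3 of 8 cases and fell in 1, beside 11.6% and 10.2% of all genes. CUP2, the activator of metallothionein genes, rose by 0.32 on the log2 scale (adjusted p = 0.013). The call of CUP2 was lost with median centring (adjusted p = 0.32) and in the unmoderated test (0.055). The vacuolar copper transporter CTR2 and the mitochondrial copper chaperone COX17 rose by 0.21 and 0.25 and lost the call without any 1 of 4 arrays (CTR2 0.059 to 0.073, without wild-type array 1 or 2 or deletion array 2 or 3; COX17 0.061 to 0.079, without wild-type array 1 or 3 or deletion array 1 or 2). SOD1, on chromosome X, fell (-0.23 ± 0.04, adjusted p = 0.0060), less than the median of that chromosome (-0.79).

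**Figure D4:**
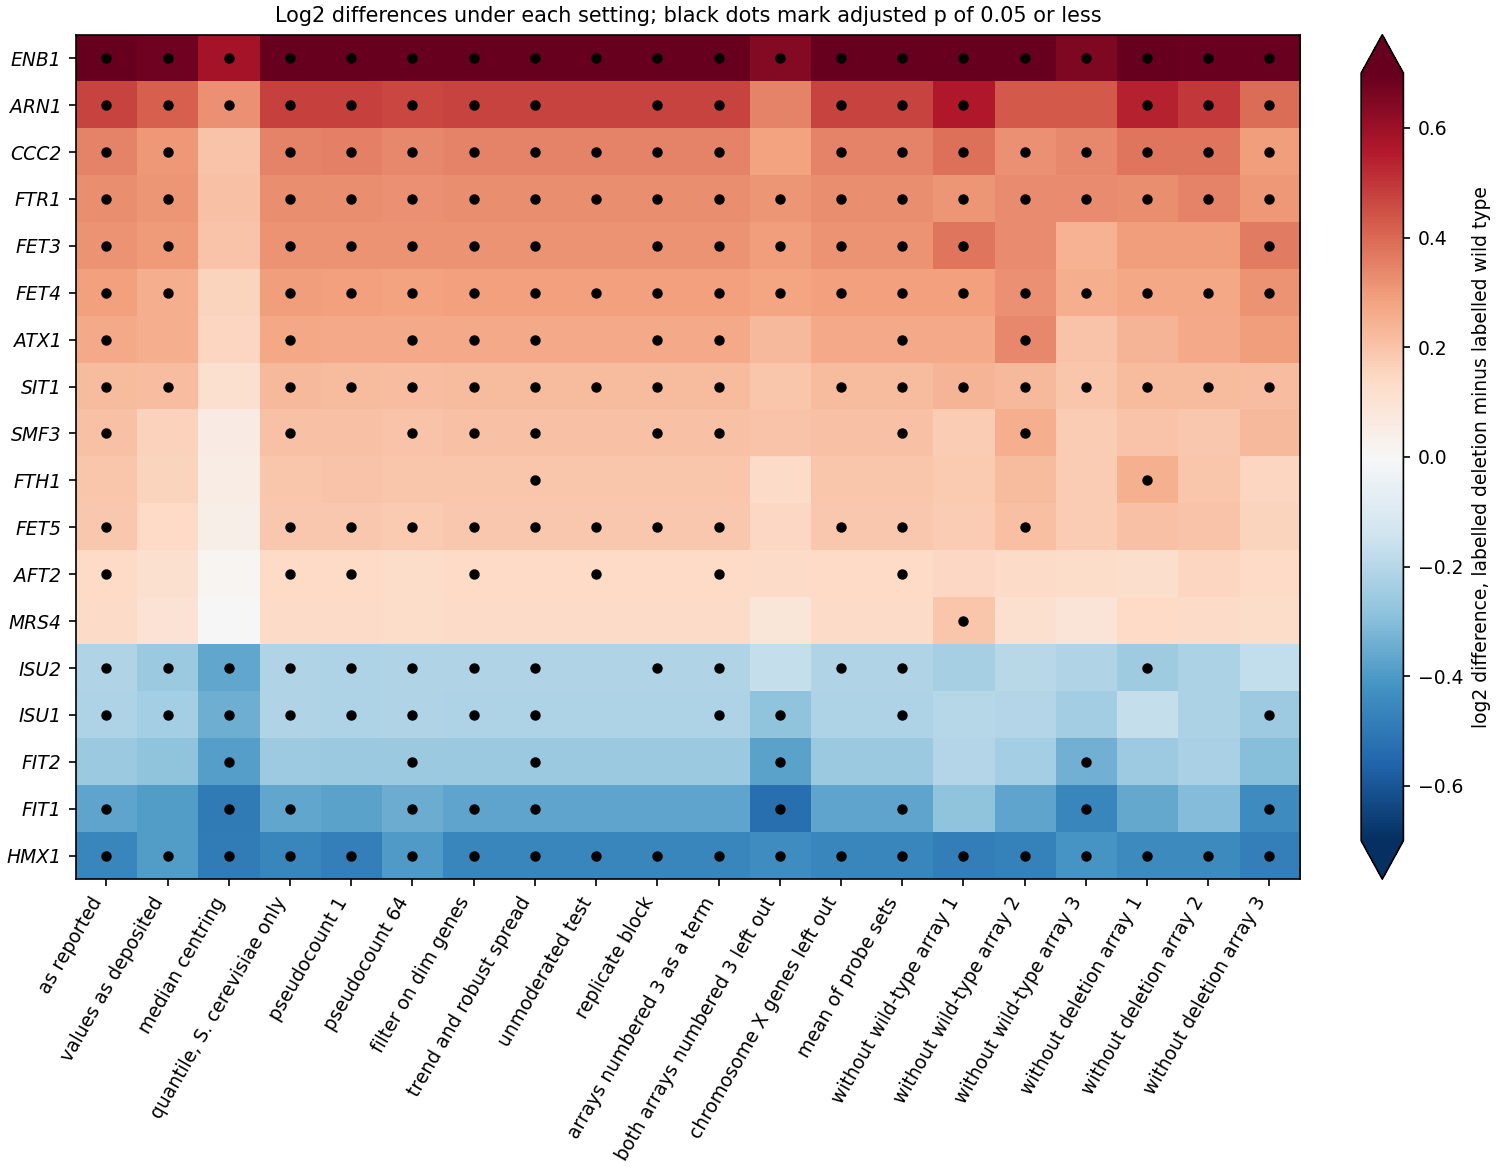
Log2 difference (colour) of the 15 iron genes called in the reported fit and of FIT2, FTH1 and MRS4, which were called in another setting, under each setting. Black dots mark an adjusted p of 0.05 or less; ENB1 and HMX1 carry a dot in every column, AFT2 and MRS4 in few.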

How the data were processed

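Biotin-labelled cRNA from total RNA of 6 yeast samples was hybridised to Affymetrix arrays, per the labels' protocols. Values deposited by the authors are linear intensities, 1 for each probe set of an array. Summarization, background correction and scaling are not given in the sources used here. Summed intensity was 17790600 to 18431400 per array, and precision is limited by having 3 arrays per group.

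Of 10928 probe sets 5498 matched a single S. cerevisiae gene through GEO's platform annotation (names as in the R64 table) and gave 5449 genes (for 47 the brightest probe set). Because the log2 medians of the deposited values differed by 0.26, all probe sets were quantile-normalized. Groups were compared on log2(intensity + 16), a scale that understates changes of dim genes, with limma 3.58.1 (lmFit, eBayes; R 4.3.3), group being the only term. A call is an adjusted p of 0.05 (Benjamini-Hochberg, all genes), ± is the SE of the fit (3 arrays per group) and intervals are at 95%. Deposited intensities are printed per array in the order 1, 2, 3. The background limit is the 95th percentile of fission yeast probe set means. The fit was tested on simulated data.

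The members and lists were chosen with earlier results of these data known. Named genes are all members, THP3, the called genes of each further list (at most 4, by smallest p) and, chosen after their values were seen, the genes beside FIT2, FIT3 and HMX1, and also ATG41, APE1 and AKR1. The replicate numbers were not taken to pair the samples (correlations in the closing section). Alternatives varied the scaling, pseudocount, filter, spread model, a term for the arrays numbered 3, a replicate block, the genes entered and the arrays.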

Additional observations from a re-analysis of the deposited data

How the results depend on the processing

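No member's call reversed under the 19 alternatives. Counts of called genes moved as follows, and the cause was not tested except that some settings enter fewer arrays or genes. With the values as deposited 7 iron genes were higher, as were 7 of the other pathway genes, all genes gave 479 higher and 635 lower calls (630 and 554 in the reported fit), and the iron median was 0.083. With median centring 7 iron genes were called (2 higher), 4 other pathway genes were higher, 241 of all genes were higher (772 lower), and the iron median was -0.018. In the unmoderated test 8 iron genes were called (7 higher, 1 lower), 9 other pathway genes were higher and 909 of all genes were called (446 higher). With both arrays numbered 3 left out 8 iron genes were called (4 higher), 8 other pathway genes and 349 of all genes were higher, the iron median was 0.084, and THP3 was called higher (0.41). With chromosome X genes left out 10 iron genes were called (8 higher, 2 lower), 18 other pathway genes (6 lower) and 761 of all genes (225 lower). ATX1, FIT1, SMF3, ISU1 and AFT2 lost their calls under it (limma adjusted p = 0.0504 to 0.063). THP3 was also called higher, at 0.33, with the arrays numbered 3 as a term.

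Leaving out 1 array at a time left 7 to 10 iron genes called (5 to 8 higher, 1 to 3 lower), 18 to 23 other pathway genes (6 to 11 higher), 830 to 983 of all genes (374 to 485 higher), an iron median of 0.065 to 0.122 and a THP3 difference of 0.15 to 0.58. Same-numbered arrays had deviations that correlated over all genes at -0.15, -0.03 and 0.61, so the numbers were not taken to pair the samples. Over the 34 iron genes alone the correlations were 0.18, 0.37 and 0.48. With the replicate number as a block 12 iron genes were called, 10 higher and 2 lower, while 1297 of all genes were called against 1184 without it. FIT1, ISU1 and AFT2 lost their calls under it (adjusted p = 0.073, 0.064 and 0.060), and THP3 was called higher (0.33, adjusted p = 0.025).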
